A study of Mus musculus with 10 samples.

Results

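The 10 neuropeptide genes Npy, Sst, Cck, Tac1, Penk, Pdyn, Vip, Oxt, Avp and Gal were read in whole newborn mouse brain on Affymetrix MG-U74Av2 arrays. The members are all probe sets whose gene symbol is one of these names, which gave 14 of the 12488 probe sets on the array. Penk had 3 probe sets, Pdyn and Gal had 2 each, and the other 7 genes had 1 each. The series holds 10 arrays of brain RNA taken on postnatal day 0. XmO animals (39 chromosomes, 3 arrays) and XX_Paf females (40 chromosomes, 3 arrays) came from the cross that the labels write C57BL/6J x C3H/Paf. XpO animals (39 chromosomes, 2 arrays) and XX_InX females (40 chromosomes, 2 arrays) came from the cross written In(X)/C3H x C57BL/6J. By their names, XmO animals carry a maternal X only and XpO animals a paternal X only. Apart from the In(X) and Paf written in the names of the crosses, no drug, transgene or other genetic change is named for any group. Because each single X group comes from a different cross, XmO against XpO compares the crosses as well as the origin of the X. The labels do not say whether an array holds 1 animal or a pool, so the p-values measure only the spread between these arrays, which may be technical.

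Neuropeptides are cut from larger precursor proteins inside dense core vesicles, by prohormone convertases and then carboxypeptidase E, and many are amidated before release. Most act on G protein-coupled receptors and tune the effect of fast transmitters. Each precursor marks particular neurons. Npy, Sst, Cck and Vip are known from cortical interneurons, Penk, Pdyn and Tac1 from striatal projection neurons, and Oxt and Avp from the magnocellular neurons of the hypothalamus. In whole brain RNA, fewer cells of a type and less RNA per cell cannot be told apart.

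The arrays had been scaled to a common mean before deposit, at 500.3 after trimming 2% at each end, and pairs of arrays correlated at 0.937 to 0.959 (Pearson's r of log2 intensity; probe sets are not independent of each other). With 2 or 3 arrays a group, array number sets the precision. The labels were checked by Xist, the transcript of the inactive X, which lay between 1673 and 4082 on the XX arrays and between 21.3 and 49.9 on the XO arrays. The brightest of 11 probe sets for Y-linked genes, which have no template in these animals, served as the background of each array and ranged from 33.6 to 136.6. Brain markers were present. Above this background on all 10 arrays were 4 of 5 measured cortical excitatory neuron genes and 12 of 16 GABAergic interneuron genes.

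RefSeq start windows, 250 bases before to 50 bases after an annotated start on build GRCm38.p6, were matched for 9 of the 10 genes and gave 10 windows. The stretches shown are the 150 bases before an annotated start of 4 genes. Those of Sst and Oxt lie inside the annotated span of the gene (chr16:23889573-23891342 and chr2:130574519-130577054), not before its outer end. Npy is shown as the gene with the smallest p of any comparison, Oxt and Avp as neighbours on chromosome 2, of which Oxt read steadily and Avp did not, and Sst as the 1 gene with a complete cyclic AMP response element, TGACGTCA. Capitals mark TGACG on either strand (as TGACG or CGTCA, which overlap within the complete element) and the run ATAAA, part of a TATA-like box, on the sense strand in the last 50 bases before the start.
Npy (chr6:49822560-49822709, plus strand): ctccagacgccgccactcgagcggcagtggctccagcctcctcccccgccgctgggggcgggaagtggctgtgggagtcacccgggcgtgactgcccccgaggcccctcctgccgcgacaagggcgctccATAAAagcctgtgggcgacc
Sst (chr16:23890845-23890994, minus strand): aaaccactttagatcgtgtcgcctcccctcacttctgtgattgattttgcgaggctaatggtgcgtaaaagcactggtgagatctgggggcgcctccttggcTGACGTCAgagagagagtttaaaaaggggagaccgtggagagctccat
Oxt (chr2:130576019-130576168, plus strand): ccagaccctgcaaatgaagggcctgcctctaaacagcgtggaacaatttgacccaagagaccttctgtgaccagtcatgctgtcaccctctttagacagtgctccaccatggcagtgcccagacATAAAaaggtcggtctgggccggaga
Avp (chr2:130582589-130582738, minus strand): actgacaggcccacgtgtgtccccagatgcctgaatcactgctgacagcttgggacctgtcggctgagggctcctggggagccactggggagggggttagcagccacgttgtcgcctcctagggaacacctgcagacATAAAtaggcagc

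TGACGTCA stood in 1 of the 10 windows of these genes, that of Sst, and in 1.79% of all 32851 windows of the same length. TGACG on either strand stood in 5 of the 10, those of Sst, Cck, Tac1, Vip and Gal, against 20.8% of all windows. ATAAA in the last 50 bases before the start was found for Npy, Tac1, Vip, Oxt and Avp, 5 of the 10 windows, against 6.57% of all windows. Both motifs and the search window were chosen after these sequences had been seen, and a match describes the letters only.

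**Figure D1:**
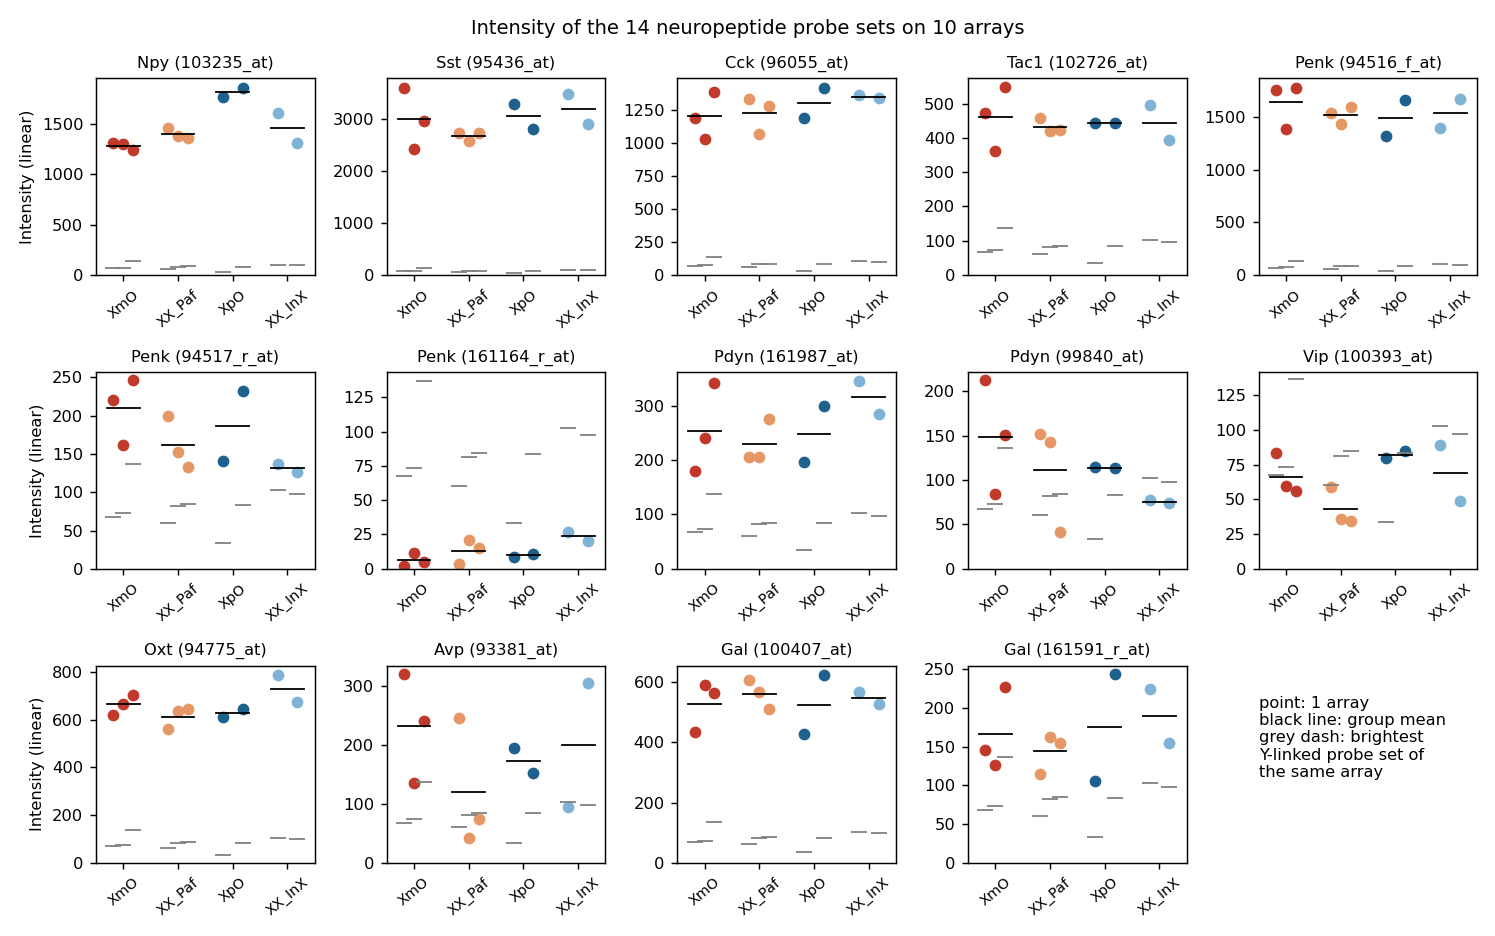
Intensity (linear scale, vertical axis) of the 14 probe sets of the 10 neuropeptide genes in the groups XmO, XX_Paf, XpO and XX_InX. Points are single arrays, black lines group means and grey dashes the brightest Y-linked probe set of the same array; Npy is highest on both XpO arrays, while Avp spans 41.8 to 319.5.

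Npy, the precursor of neuropeptide Y, an abundant peptide of cortical and hypothalamic neurons, was the 1 member with an unadjusted p under 0.05 in any comparison. Its intensity was 1306.7, 1299.6 and 1237.6 on the XmO arrays and 1458, 1378 and 1353 on the XX_Paf arrays. In the other cross it was 1766 and 1857 on the XpO arrays and 1610 and 1304 on the XX_InX arrays. Both XpO arrays stood above the other 8, every XmO array stood below every XX_Paf array, and the XX_InX arrays overlapped with XmO and XX_Paf. The largest difference was that of XmO (1281 ± 38.0, SD, n = 3) against XpO (1811 ± 63.9, SD, n = 2), with a log2 fold change of -0.50 (SE 0.12, 95% interval -0.77 to -0.23). It ranked as number 25 by p among 8695 probe sets and did not pass (limma, unadjusted p = 0.00159, adjusted p = 0.552).

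Within the crosses the Npy estimates had opposite signs. XmO against XX_Paf gave -0.12 (SE 0.11, limma adjusted p = 0.904) and XpO against XX_InX gave 0.32 (SE 0.14, limma unadjusted p = 0.0353, adjusted p = 0.99975). The difference of these effects was -0.45 (SE 0.18, limma unadjusted p = 0.0257, adjusted p = 0.832). Without XX_InX 19, the lower array of that group, the values were 0.17 for XpO against XX_InX and -0.29 for the difference, and neither had an unadjusted p under 0.05. Between the XX females of the crosses the estimate was -0.05 (SE 0.12). These comparisons share arrays and are not independent of each other.

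Lists of other genes were summed beside Npy, and only the cortical excitatory sum was higher on both XpO arrays than on all the others. The summed intensity of the 5 cortical excitatory neuron genes, each by its brightest probe set, was 4827 to 4970 in XpO, 3432 to 4210 in XmO, 3589 to 4401 in XX_Paf and 3526 to 4312 in XX_InX. None of the 5 was at background on all arrays. Of their 5 tested probe sets, 5 had lower estimates in XmO than in XpO (median log2 fold change -0.41, against 0.000363 over all tested probe sets), and 0 were called, with 2 at an unadjusted p under 0.05. The 16 GABAergic genes summed to 16015 to 16038 in XpO and 14587 to 14832 in XX_InX, but to 14262 to 16140 in XmO, which overlaps with XpO. The sum of the red blood cell genes (7 measured, 3 above background on all arrays) differed between the crosses. It was 6384 to 7694 in XpO and 4216 to 6487 in XX_InX against 11517 to 17568 in XmO and 11907 to 17188 in XX_Paf. Most of it was Hba-a1, with means of 5327 in XpO, 3674 in XX_InX, 10396 in XmO and 10866 in XX_Paf. The Hbb-b2 means also differed between the crosses in that direction (1084, 1162, 2779 and 2973 in the same order). The Hba-x means ran the other way (155, 133, 124 and 107 in the same order), with 1 XX_InX array at or below background. Of the 6 tested probe sets of the list, 4 were higher in XX_Paf than in XX_InX (median 0.11). The part of these lists in the Npy result was not tested.

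Sst, the precursor of somatostatin, an inhibitory peptide of GABAergic interneurons, read 3599, 2425 and 2962 in XmO and 2736, 2569 and 2729 in XX_Paf. It read 3293 and 2814 in XpO and 3474 and 2895 in XX_InX. The XmO arrays alone held both the lowest and the highest of the 10 readings, so XmO overlapped with every other group. Both XpO and both XX_InX arrays lay above all XX_Paf arrays (log2 fold change of XX_Paf against XX_InX -0.24, SE 0.16, limma adjusted p = 0.499). Cck, the precursor of cholecystokinin, a peptide of cortical neurons as well as of the gut, ranged from 1031 to 1417 over the 10 arrays. Its XX_InX arrays (1363 and 1336) lay just above the highest XX_Paf array (1334), with an estimate of -0.15 (SE 0.16, limma adjusted p = 0.690). Vip, the precursor of vasoactive intestinal peptide, was at or below the background on 7 of 10 arrays, with readings of 34.1 to 89.6, and was too dim to be tested. It was not well above background on any array of XX_Paf or XX_InX, and above it on both XpO arrays (80.0 and 84.7, against backgrounds of 33.6 and 83.4) and on 1 of 3 XmO arrays.

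The striatal peptide precursors gave no group that stood apart on their brightest probe sets. Tac1, which encodes substance P, read 361 to 548 in XmO and 393.5 to 495 in XX_InX, with XX_Paf (419 to 458) and XpO (444 and 445) inside those ranges. Penk, the precursor of the enkephalins, which act on delta and mu opioid receptors, was between 1323 and 1781 on its brightest probe set, and every pair of groups overlapped. The brightest probe set carries the suffix that Affymetrix gave to probes shared by a sequence family, so related transcripts may add to it. The second probe set, of the kind for which Affymetrix relaxed its selection rules, read 141 and 232 in XpO and 137 and 127 in XX_InX. Those groups did not overlap (log2 fold change 0.46, SE 0.33, limma adjusted p = 0.99975), but the estimate was 0.10 without XpO 18 and 0.81 without XpO 15, while the brightest probe set gave -0.04 (SE 0.17) for the same comparison. The third Penk probe set was at 2.10 to 27.1, below the background on all 10 arrays.

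Pdyn, the precursor of dynorphins, which act on the kappa opioid receptor, was read by probe sets that disagreed. The brighter one was at 180, 241 and 341 in XmO, 206, 205 and 275 in XX_Paf, 197 and 299 in XpO, and 346 and 285 in XX_InX. The dimmer one was at 213, 83.8 and 151 in XmO, 152, 143 and 41.2 in XX_Paf, 115 and 113 in XpO, and 77.5 and 73.7 in XX_InX. So XX_InX was the highest group by mean on the brighter probe set and the lowest on the dimmer one, where both its arrays were not well above background. Over the 10 arrays their log2 values correlated at r = -0.48 (permutation p = 0.157, adjusted p = 0.254 over 5 pairs of probe sets of 1 gene) and rho = -0.50 (permutation p = 0.143, adjusted p = 0.357). Without the 2 arrays farthest from the median on the brighter probe set r was -0.24. XX_Paf against XX_InX on the brighter probe set gave -0.47 (SE 0.29, limma adjusted p = 0.475), with no overlap between the groups.

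The paired probe sets of Penk and Gal ran the same way without passing. For the 2 Penk probe sets above background r was 0.59 (permutation p = 0.0731, adjusted p = 0.254) and rho 0.39 (permutation p = 0.263, adjusted p = 0.393), with r at 0.41 without the 2 farthest arrays. For the 2 Gal probe sets r was 0.44 (permutation p = 0.204, adjusted p = 0.254) and rho 0.36 (permutation p = 0.314, adjusted p = 0.393), with r at 0.08 without the 2 farthest arrays, so that relation rests on those arrays. Gal, the precursor of galanin, a peptide of hypothalamic and brainstem neurons, read 427 to 625 on its brighter probe set, and both of these extremes were XpO arrays. Its dimmer probe set ran from 106 to 244, and there too the extremes were the XpO arrays.

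Oxt and Avp encode oxytocin and vasopressin with their neurophysin carriers, from genes that neighbour each other on chromosome 2, with no annotated gene between them in RefSeq, and that face each other (Oxt on the plus strand, Avp on the minus strand). Oxt read 622, 665 and 706 in XmO, 559, 635 and 646.5 in XX_Paf, 611 and 645 in XpO, and 788 and 673 in XX_InX. Avp read 319.5, 135 and 240.3 in XmO, 245, 41.8 and 73.4 in XX_Paf, 194 and 152.5 in XpO, and 95.1 and 305 in XX_InX. The highest Oxt array was 1.41-fold above the lowest. For Avp the highest reading was 319.5, and the lowest, 41.8, was below the background of its array (81.6), so no fold is given. Low and high Avp arrays occurred together in XX_Paf and in XX_InX, and 2 XX_Paf arrays and 1 XX_InX array were not above the background.

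In residual SD within groups on the log2 scale, Avp (0.97) lay at percentile 98.6 of all 8695 tested probe sets and Oxt (0.11) at percentile 7.64, where the median probe set had 0.23. Dim probe sets spread more. Among the 500 probe sets nearest in mean intensity, 97.4% had a smaller residual SD than Avp and 9.40% a smaller one than Oxt. Npy was also steady (0.10, percentile 5.55), and the dimmer probe sets of Pdyn (0.73, percentile 95.5) and Gal (0.48, percentile 88.6) were not. These percentiles describe spread and are no test of a difference between genes.

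**Figure D2:**
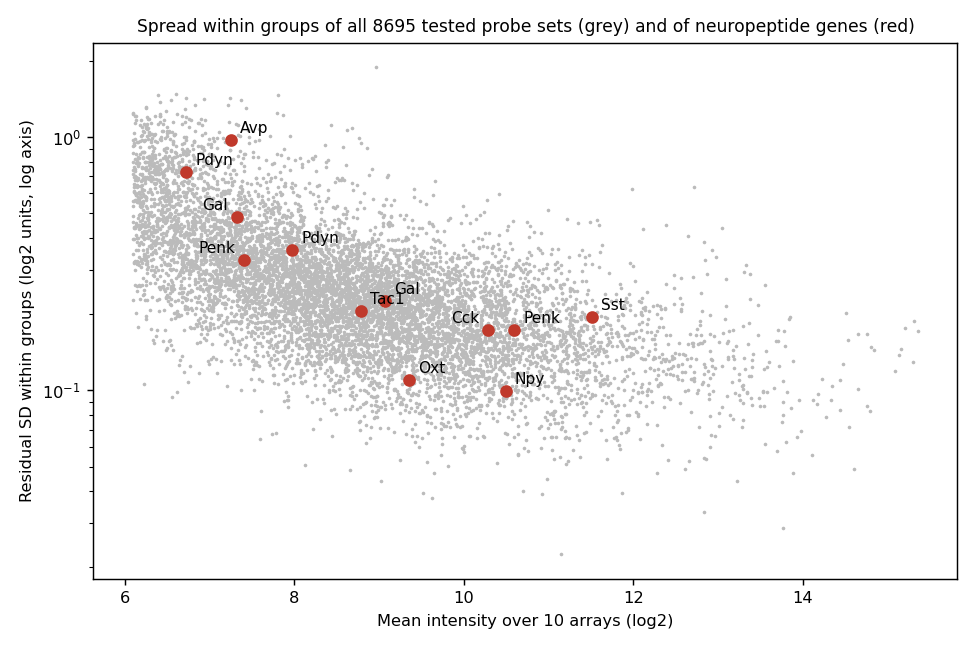
Residual SD within groups (log2 units, logarithmic vertical axis) against mean log2 intensity over the 10 arrays, for the 8695 tested probe sets in grey and the 12 tested neuropeptide probe sets in red. Avp (0.97) lies near the top of its intensity range, and Oxt (0.11) and Npy (0.10) near the bottom of theirs.

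The hypothalamus and the pituitary were followed by marker lists beside Avp. Of 12 measured hypothalamic markers, Six6 was below background on all arrays, and the list summed to 3853 to 4950 in XmO, 4097 to 4332 in XX_Paf, 4344 to 5211 in XpO and 4392 to 4733 in XX_InX. Of 9 measured pituitary genes, Hesx1 was below background on all arrays, with sums of 1749 to 1773 in XmO, 1395 to 1973 in XX_Paf, 1693 to 2135 in XpO and 2059 to 2386 in XX_InX. Within XX_Paf, where Avp read 41.8 to 245, the range was narrow for the hypothalamic list and wide for the pituitary list. The hypothalamic sum leaned on 1 probe set of Nr5a1, which alone read 1957 to 2341 in XX_Paf. Further probe sets of that gene read 142 to 209.5 and 60.7 to 96.7 there, so the sum is a weak measure of hypothalamic tissue. Whether the amount of either tissue on an array bears on Avp was not tested.

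The question of XO against XX, where both crosses count equally, is whether these genes differ when an X is missing. No member passed: 0 of 12 tested probe sets were called by limma, where 0.0115% of all 8695 were, and 0 had an unadjusted p under 0.05, where 2.60% of all did. The estimates were higher in XO for 7 and lower for 5, with a median log2 fold change of 0.03 against 0.000422 over all tested probe sets. For 7 of the 12 the 95% interval, not adjusted for the number of tests, stayed within 0.5 log2 units of 0. They were Npy (-0.09 to 0.29), Sst (-0.20 to 0.28), Cck, Tac1, the brightest Penk probe set, Oxt (-0.27 to 0.17) and the brighter Gal probe set. The widest interval was that of Avp (estimate 0.64, -0.37 to 1.64). No member had XO and XX arrays apart in the same direction in both crosses, which 0.851% of all tested probe sets had.

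In XmO against XX_Paf, 0 of 12 passed by limma (0.0230% of all tested) and 0 had an unadjusted p under 0.05 (5.53% of all tested). Groups did not overlap for 1 of 12, Npy, against 13.9% of all tested probe sets. The largest estimate was that of Avp, at 1.26 (SE 0.59, 95% interval -0.01 to 2.53, limma unadjusted p = 0.0513, adjusted p = 0.877). It stayed between 0.70 and 1.98 without any 1 array, being 0.70 without XX_Paf 2 and 1.98 without XX_Paf 1. Avp was not above background on 2 of the 3 XX_Paf arrays, so the size of this estimate rests partly on background readings. The median over the 12 was 0.12, against 0.00211 over all tested probe sets.

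In XpO against XX_InX, 0 of 12 passed by limma (0.0115% of all tested), and 1, Npy, had an unadjusted p under 0.05 (3.38% of all tested). Groups did not overlap for 4 of the 12, against 23.4% of all tested probe sets. Higher in XpO were Npy, the second Penk probe set and the dimmer Pdyn probe set, and lower was Oxt (-0.21, SE 0.16, limma adjusted p = 0.99975). Avp had an estimate of 0.01 (SE 0.72), which was -0.83 without XX_InX 1 and 0.85 without XX_InX 19.

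In XmO against XpO, 0 of 12 passed by limma (0.0115% of all tested), and 1, Npy, had an unadjusted p under 0.05 (4.83% of all tested) and no overlap (17.4% of all tested). The estimates of the other 11 lay between -0.12 (Cck) and 0.34 (Avp, SE 0.66). The difference of the monosomy effects between the crosses passed for 0 of 12 by limma (0.0230% of all tested), with 1, Npy, at an unadjusted p under 0.05 (5.91% of all tested). For Npy alone the groups stood apart in both crosses and in opposite directions, which 2.02% of all tested probe sets did.

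Between the XX females, XX_Paf against XX_InX, 0 of 12 passed by limma (0.0805% of all tested) and 0 had an unadjusted p under 0.05 (13.8% of all tested). Lower estimates in XX_Paf were found for 9 of the 12, with a median of -0.10 against -0.02 over all tested probe sets. Groups did not overlap for 4 of 12 (Sst, Cck, the brighter Pdyn probe set and Oxt), against 37.1% of all tested probe sets. All 4 were lower in XX_Paf. Of all tested probe sets, 19.5% were both without overlap and lower in XX_Paf. By estimate alone, with or without overlap, 47.3% of all were higher in XX_Paf. Oxt was at 614 ± 47.4 (SD, n = 3) and 730.4 ± 81.4 (SD, n = 2), with a log2 fold change of -0.25 (SE 0.15, limma adjusted p = 0.457). Avp had an estimate of -0.91 (SE 0.66, limma adjusted p = 0.547), which was -1.75 without XX_InX 1 and -0.06 without XX_InX 19. For Avp, 2 XX_Paf arrays and 1 XX_InX array were not above background. Between the same females the red blood cell sums did not overlap, and the alpha globin gene Hba-a1 was higher in XX_Paf and passed (log2 fold change 1.58, SE 0.22, limma adjusted p = 0.0211). Their part in the peptide estimates was not tested.

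**Figure D3:**
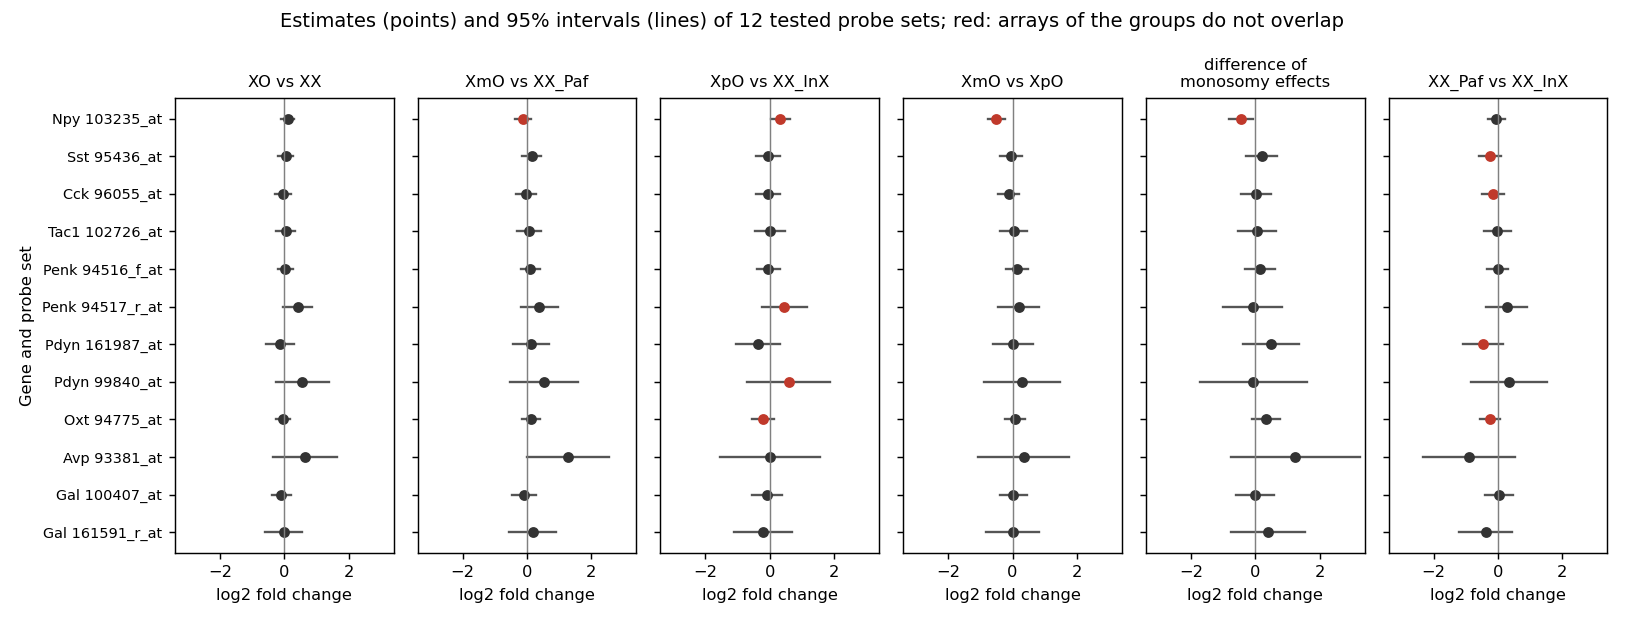
Log2 fold change (horizontal axis; points) with its unadjusted 95% interval (lines) for the 12 tested neuropeptide probe sets in 6 comparisons; red points are probe sets whose arrays do not overlap between the groups, in the first panel within both crosses in the same direction and in the fifth in opposite directions. The Npy interval leaves out 0 in XmO against XpO (-0.50), in XpO against XX_InX (0.32) and in the difference of effects (-0.45), none of which passed adjustment. The Avp intervals are the widest in every panel.

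The receptors were mostly dim. Of 28 receptor genes listed, 24 had a probe set, and 5 stood above background on all 10 arrays by their brightest probe set. They were the somatostatin receptors Sstr2 (272 to 486) and Sstr4 (653 to 1075), the cholecystokinin receptor Cckbr (561 to 837), the neuropeptide Y receptor Npy2r (298 to 539) and Adcyap1r1 (271.5 to 423), the receptor of the Vip relative PACAP. The brightest Npy2r probe set carries the suffix of probes shared by a sequence family. The other Npy2r probe set (85.3 to 161.7) was at or below background on 1 array. The other Adcyap1r1 probe set (19.2 to 47.2) was so on 9. The substance P receptor Tacr1, Npy5r and the mu opioid receptor Oprm1 were below background on every array. The X-linked vasopressin receptor Avpr2 read 65.2 to 135.7 and was at or below background on 1 array. None of the 16 tested receptor probe sets was called in any of the 6 comparisons by limma. In XmO against XX_Paf 1 of the 16, Adcyap1r1, had an unadjusted p under 0.05, where 5.53% of all tested probe sets had one. Adcyap1r1 was also the 1 of the 16 with one in XX_Paf against XX_InX (13.8% of all tested). Adcyap1r1 read 271.5 to 302 in XX_Paf. It was at 352.5 to 397 in XmO (XmO against XX_Paf 0.37, SE 0.15, limma adjusted p = 0.877) and at 357 to 423 in XX_InX (XX_Paf against XX_InX -0.44, SE 0.17, limma adjusted p = 0.293). Lower estimates in XX_Paf than in XX_InX were found for 13 of the 16 (median -0.29, against -0.02 over all tested probe sets, of which 47.3% were higher in XX_Paf).

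Of 24 listed genes that cut, amidate and store peptides, 19 had a probe set and 15 were above background on all arrays. Carboxypeptidase E (Cpe), which trims the cut peptides, read 7457 to 9853 on its brightest probe set, and the granins Chgb and Scg2, which pack the vesicle core, read 1841 to 2571 and 1030.2 to 1501. The convertase gene Pcsk1 (35.1 to 108) was at or below background on 4 arrays and the amidating enzyme gene Pam (27.2 to 173) on 3. The X-linked Pcsk1n, which encodes proSAAS, an inhibitor of that convertase, read 4013, 3705 and 3771 in XmO, 3463, 2341 and 3379 in XX_Paf, 3702 and 3587 in XpO, and 4072 and 4423.5 in XX_InX. XX_Paf lay below the other groups and XX_InX above them (XX_Paf against XX_InX -0.49, SE 0.15, limma adjusted p = 0.203). The vesicle protein gene Scg3 ran the other way on its brightest probe set, at 1114 ± 181 in XX_Paf (SD, n = 3) and 650.2 ± 218 in XX_InX (SD, n = 2; 0.81, SE 0.23, limma adjusted p = 0.186). None of the 26 tested probe sets was called in any comparison by limma, and 4 had an unadjusted p under 0.05 in XX_Paf against XX_InX, where 13.8% of all tested probe sets had one.

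**Figure D4:**
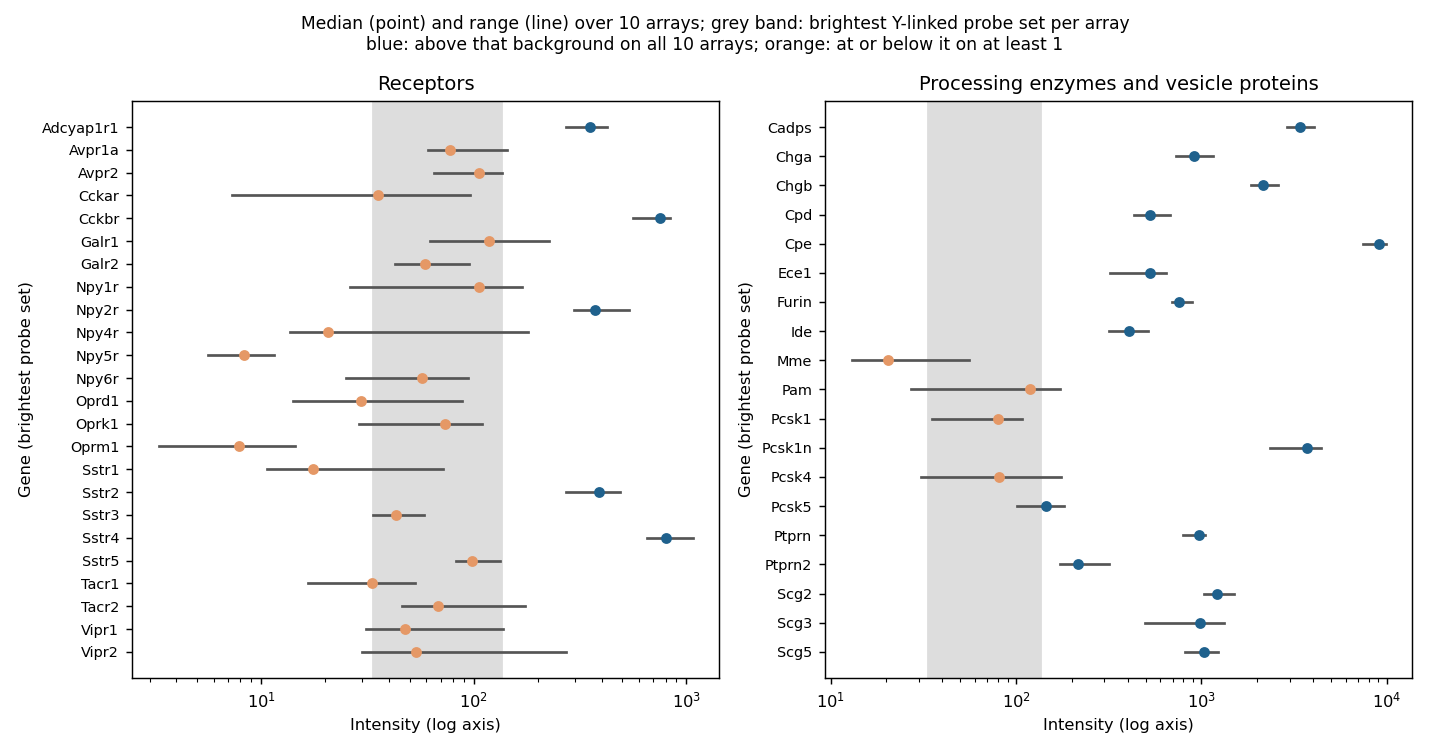
Median (point) and range (line) over the 10 arrays of the brightest probe set of each receptor gene (left) and each processing or vesicle gene (right), with intensity on a logarithmic axis. The grey band spans the brightest Y-linked probe set per array (33.6 to 136.6); 5 of 24 receptor genes and 15 of 19 processing genes are blue, above that background on all arrays, and orange genes are at or below it on at least 1.

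For each of the 9 tested members, the 2 probe sets whose log2 values followed it most closely over the 10 arrays were named from 7804 candidates. Chosen as the highest of so many, the correlations (r of 0.859 to 0.963, and 0.665 to 0.957 without the 2 arrays farthest from each member's median) are descriptions only, and the points share the scaling of the arrays and the groups. Npy was followed by the G protein-coupled receptor gene Gpr37l1 (r = 0.91) and the chemokine gene Ccl3 (0.91). Sst was followed by Reep1 (0.95) and the synaptotagmin gene Syt11 (0.91), and Cck by the synaptic vesicle calcium sensor gene Syt2 (0.89) and Pdxdc1 (0.89). Oxt was followed by the glutathione reductase gene Gsr (0.93) and Cilp2 (0.92), and Avp by B4galt6 (0.92) and Tfcp2l1 (0.90). The nearest to Tac1 were Itgb4 and Chaf1a, to Penk Sdc2 and Ggps1, to Pdyn Sphk2 and Aamp, and to Gal Casp9 and Cyp2e1. Some of these were dim. Ccl3 read 39.5, 55.1 and 49.4 on the XmO arrays, below their backgrounds (67.7, 73.2 and 136.6). Itgb4 and Syt2 were also below background on some arrays, such as Itgb4 on XX_Paf 3 (36.4 against 84.7) and Syt2 on XmO 2 (54.4 against 73.2).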

How the data were processed

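The deposited table gives 1 linear intensity per probe set and array. How the authors summarised the probes is not stated in the labels or files, but the equal trimmed means of the deposited intensity values show that arrays had been scaled. No further normalization was applied. Probe sets took their gene from the platform annotation: of 12488, 66 controls were left out, 10833 had 1 symbol, 396 several and 1193 none. Intensities under 15, the 10th percentile, were raised to it, log2 was taken, and the 8695 probe sets whose mean reached the 30th percentile were tested, among them 12 of the 14 neuropeptide probe sets. A model with 1 mean per group (6 residual degrees of freedom) was fitted (limma 3.58.1, eBayes with trend, under R 4.3.3). All 6 contrasts were two-sided, adjusted by Benjamini and Hochberg over all tested probe sets, and called at an adjusted p under 0.05. Correlations used 100000 permutations. Figures were drawn with matplotlib 3.10.9.

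The fit was tested on simulated data with 200 of 8695 probe sets changed by 1 log2 unit. The share recovered was lowest for the difference of effects (29.5%). It was 57.5% between the XX females, 58% in XpO against XX_InX and 64% in XmO against XpO. It rose to 73% in XmO against XX_Paf and 91% for XO against XX. Of the calls, 4.21% were false for XO against XX and 6.35% to 9.45% elsewhere, the most between the XX females. So 0 members called does not exclude changes of this size. The members, context lists and tests were chosen with earlier results of these data known. Named were all member probe sets, list genes that were called or had the smallest p, and the 2 closest probe sets per member. Alternatives changed the filter, floor, offset, scaling, variance trend, samples in the fit and pairing, and left out each array in turn. Replicate numbers shared by XmO and XX_Paf (1 and 2) did not pair the arrays (correlation of deviations from the group means -0.0123 and -0.0415).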

Additional observations from a re-analysis of the deposited data

Results flagged for a closer look

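Npy and Oxt had monosomy effects of opposite sign in the crosses, with every XO array on the same side of its cross's XX mean; 12.3% of all 8695 tested probe sets had such a pattern. For Npy the effects were -0.12 for XmO and 0.32 for XpO, each against its own XX group, a difference of -0.45 (SE 0.18, limma adjusted p = 0.832). For Oxt they were 0.12 and -0.21, a difference of 0.33 (SE 0.21, limma unadjusted p = 0.133, adjusted p = 0.874). Neither difference passed. No group held enough arrays for a check of single outlying arrays.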

How the results depend on the processing

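Over 107 recalculations of the 6 counts of neuropeptide probe sets called, 107 gave 0, by limma, and the smallest adjusted p of any member was 0.262 (Npy in XmO against XpO, without XpO 15). Of 72 member effects, 41 took the other sign in at least 1 alternative, as most lay near 0. Of the 21 effects given by name (those without overlap or with an unadjusted p under 0.05, and all of Oxt and Avp), 19 kept their sign throughout. The exceptions were Oxt in XO against XX, at -0.106 to 0.00771 when 1 array was left out, and Avp in XpO against XX_InX, at -0.826 to 0.855 when 1 array was left out and -0.0301 with log2(value + 50). The Npy estimate in XmO against XpO stayed between -0.54 and -0.46 without any 1 array, while that in XpO against XX_InX ran from 0.17 to 0.47 and the difference of effects from -0.60 to -0.29. The unadjusted p of Npy was no longer under 0.05 in XpO against XX_InX without XpO 15, XpO 18 or XX_InX 19, with no intensity trend, or with only the compared groups. The same held for the difference without XmO 7, XpO 18 or XX_InX 19. With the replicate number as a block in XmO against XX_Paf, on the arrays numbered 1 and 2, 0 members were called; the other comparisons share fewer than 2 numbers. Avp in XmO against XX_Paf changed the other way, from an unadjusted p of 0.0513 by limma in the main fit. Among other settings, it was under 0.05 with the floor at the 20th percentile and without XmO 2 or XX_Paf 1. The same held with only the compared groups (limma adjusted p = 0.629) and with the replicate block. Vip and most receptors were limited by signal over background.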

Other observations

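Among 22 measured precursors of other neuropeptides and related peptide hormones, Trh and Pnoc had large estimates between the XX females, and neither passed. Trh, the precursor of thyrotropin-releasing hormone, read 144, 249 and 210 in XX_Paf and 393 and 430 in XX_InX (log2 fold change -1.07, SE 0.42, limma adjusted p = 0.299). In XmO it read 253, 323 and 289, and its XpO arrays, at 100.5 and 373.5, lay 1 at each end of the range of the XO arrays. Pnoc, the precursor of nociceptin, ran the opposite way, at 158, 222 and 148 in XX_Paf and 43.8 and 50.7 in XX_InX, where both arrays were not well above background, and at 98.2, 38.6 and 103 in XmO and 196 and 39.9 in XpO. Of the 20 tested probe sets of such precursors, 17 had higher estimates in XmO than in XX_Paf (median 0.22), against 50.5% of all tested probe sets. In XpO against XX_InX 8 of the 20 were higher (median -0.12), against 47.9% of all. None of the 20 was called in any comparison by limma. An unadjusted p under 0.05 was found for 2 in the first comparison (5.53% of all tested) and 1 in the second (3.38% of all tested).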
